A study of Mus musculus with 2 samples.

Results

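The genes described here are 10 members of bone morphogenetic protein (BMP) signalling: the ligands Bmp4 and Bmp7, the transcription factor genes Id1, Id2, Id3, Msx1 and Msx2, and the inhibitor genes Bambi, Smad6 and Smad7. They were taken by gene symbol, and each symbol matched 1 row of each of the 2 count matrices, which list the same 27998 genes. The study differentiated AB2.2 cells, an established mouse embryonic stem cell line, toward mesendoderm for 4 days and profiled single cells on the 10x Genomics droplet platform, with 1 library of wild type cells (WT) and 1 of cells in which PHD2 was knocked out (PHD2-KO). PHD2, encoded by Egln1, is a prolyl hydroxylase that uses oxygen to mark hypoxia-inducible factor (HIF) for destruction, and mesendoderm is the precursor state of mesoderm and endoderm. Neither the altered part of Egln1, the number of knockout clones, the culture medium nor the oxygen level is given in the sources used. Since a group is a single library, no test could be run, and every difference below compares these 2 libraries.

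After filtering, 8515 WT cells (median 20444 unique molecular identifiers, UMIs, per cell) and 6927 PHD2-KO cells (median 20999) were kept. A level is the UMIs of a gene summed over the cells of a group and scaled to the UMI total of that group (CPM). Intervals in parentheses are exact 95% intervals for counting error only and say nothing of the spread between cultures. Egln1 stood at 18.2 CPM in WT and 13.7 CPM in PHD2-KO cells, and since transcript outside the altered part would still be counted, this does not check the knockout. Of the cell barcode sequences, 22 occurred in both libraries. Cells with a low share of UMIs from chromosome 8, the lower component of a mixture fitted to that share, made up 14.8% of WT and 44.2% of PHD2-KO cells, and cells with a high share from chromosome 11 made up 0.869% and 10.1%. None of the 10 genes lies on either chromosome, but several differed between these classes.

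Cells were also divided by T, the Brachyury gene of the primitive streak, and by Mesp1, a transcription factor gene of nascent mesoderm. For this, UMIs were drawn at random so that every cell had 14000, and shallower cells were set aside, leaving 7742 WT and 6283 PHD2-KO cells. A cell with no T UMI was T-negative, with 1 to 4 T-low, with 5 or more T-high, and a cell with any Mesp1 UMI was Mesp1-positive. In WT 93.4% of these cells were T-negative, 6.59% T-low and 1 cell T-high, and 36 cells were Mesp1-positive, which are too few to describe. In PHD2-KO 18.1% were T-negative, 43.8% T-low and 38.1% T-high, and 33.0% had a Mesp1 UMI. T-negative does not mean equal T in both libraries: before thinning, T stood at 2.08 CPM in T-negative WT and 25.3 CPM in T-negative PHD2-KO cells.

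BMP ligands bind pairs of serine/threonine kinase receptors, which phosphorylate Smad1, Smad5 and Smad9. These enter the nucleus with Smad4 and turn on target genes, among them the Id genes, whose proteins hold back basic helix-loop-helix transcription factors, and the Msx homeobox genes. The pathway also induces its own brakes: Bambi is a receptor-like protein without a kinase domain, and Smad6 and Smad7 are inhibitory Smads that act at the receptors. In the gastrulating mouse embryo, BMP4 from the extraembryonic ectoderm is needed for mesoderm to form, and high BMP activity goes with the posterior streak and its extraembryonic and lateral mesoderm.

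Over all kept cells, the ligands, the Msx genes and Smad6 were higher in PHD2-KO, Id1, Id3, Bambi and Smad7 differed by less than 1.5-fold, and Id2 was lower, also by less than 1.5-fold. A gene counted as measured where the higher of its 2 levels was at least 5 CPM. Of 7 measured members 2 (Msx1 and Msx2) were higher by 1.5-fold or more and 0 were lower. Over all genes measured in the same way, 11.7% were higher and 2.35% lower by that fold. The median log2 ratio of the 7 members was 0.25 against 0.17 over the 8537 measured genes. Msx2 reached 5 CPM only through the PHD2-KO library, so its count among the higher genes was set by that limit. It also enters the members' median with that direction. Bmp4, Bmp7 and Smad6 stayed below the limit in both libraries and are given by their levels. The plot of PHD2-KO over WT ratios shows all 10 genes.

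**Figure D1:**
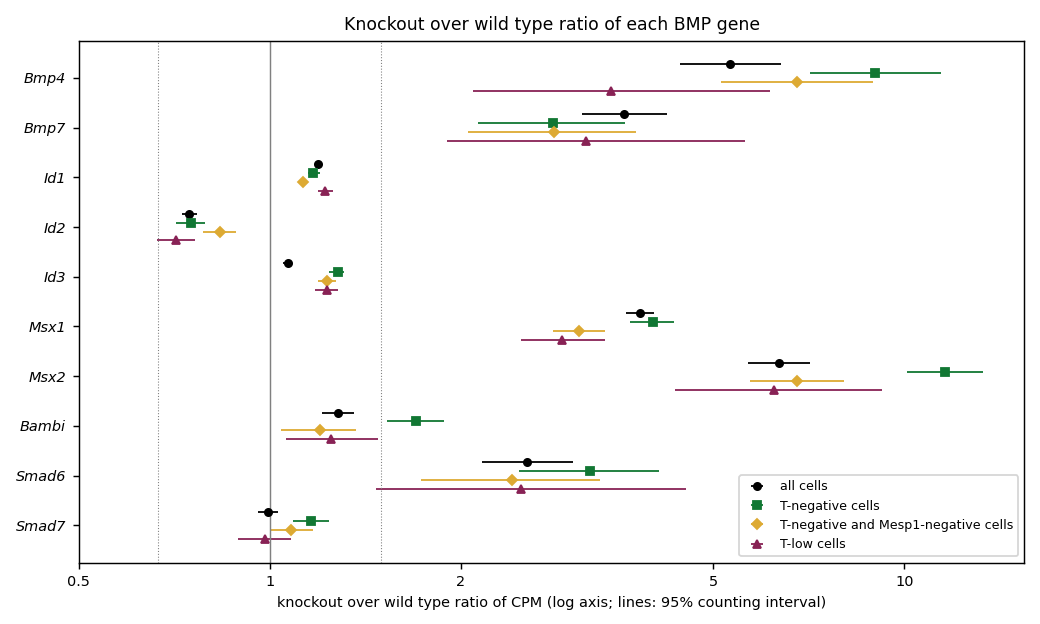
PHD2-KO over WT ratio of the level of each gene (log axis) over all kept cells and within T-negative, T-negative and Mesp1-negative, and T-low cells. Points are ratios, lines are 95% counting intervals and dotted lines mark 1.5-fold either way. Bmp4, Bmp7, Msx1, Msx2 and Smad6 lie right of the upper dotted line in every cell group, although the intervals of Smad6 in T-low cells reach it, and Id2 lies left of 1 in every one.

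Bmp4 (mm10 chromosome 14, 46383520 to 46390669, minus strand) encodes the ligand most closely tied to mesoderm formation. It stood at 0.744 CPM in WT (150 UMIs) and 3.95 CPM in PHD2-KO cells (622 UMIs), a ratio of 5.31 (4.43 to 6.38). An exon of the gene model Gm15217 on the opposite strand overlaps a Bmp4 exon over 89 bases, and the sources used do not say whether counting used the strand, so UMIs from that stretch cannot be told apart. Bmp7 (chromosome 2, 172868012 to 172940321, minus strand), whose protein can pair with BMP4, stood at 1.13 and 4.07 CPM, a ratio of 3.62 (3.11 to 4.23). Both ligands were thus low in both libraries. After thinning, 1.05% of WT and 4.03% of PHD2-KO cells had a Bmp4 UMI, and before thinning 1.66% and 5.99% did. For Bmp7 the thinned shares were 1.65% and 5.36%.

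Msx1 (chromosome 5, 37820485 to 37824583, minus strand) and Msx2 (chromosome 13, 53466884 to 53473074, minus strand) encode related homeodomain repressors. Msx1 stood at 9.79 CPM in WT and 37.5 CPM in PHD2-KO cells, a ratio of 3.83 (3.64 to 4.03). Msx2 stood at 1.87 CPM and 11.8 CPM, a ratio of 6.34 (5.67 to 7.10). The share of cells with a UMI moved the same way at equal depth. Msx1 was found in 9.73% of thinned WT and 28.5% of thinned PHD2-KO cells (14.2% and 34.9% before thinning), and Msx2 in 2.58% and 10.8% (3.89% and 14.4%).

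The upstream sequences of Bmp4, Msx1 and Smad6 are shown because their windows overlap no annotated exon. These windows hold the core letters of the HIF-bound hypoxia response element, but neither these letters nor the levels of the genes entered the choice. Of the 10 genes, 6 (Bmp4, Id2, Id3, Msx1, Msx2 and Smad6) matched a RefSeq promoter entry of build GRCm38.p6. Each sequence is the 250 bases before the RefSeq start, 5′ to 3′ on the gene's strand. Capitals mark ACGTG and GCGTG on either strand, with overlapping matches run together. The windows lie at chr14:46390670-46390919 (minus strand) for Bmp4, chr5:37824586-37824835 (minus strand) for Msx1 and chr9:64022060-64022309 (minus strand) for Smad6, and none of the 3 overlaps an annotated exon, unlike those of Id2, Id3 and Msx2, which are not printed.
Bmp4: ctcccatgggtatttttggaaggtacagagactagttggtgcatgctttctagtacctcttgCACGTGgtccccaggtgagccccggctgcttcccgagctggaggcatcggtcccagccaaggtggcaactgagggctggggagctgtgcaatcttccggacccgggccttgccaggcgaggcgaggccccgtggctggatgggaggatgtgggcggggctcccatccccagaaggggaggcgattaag
Msx1: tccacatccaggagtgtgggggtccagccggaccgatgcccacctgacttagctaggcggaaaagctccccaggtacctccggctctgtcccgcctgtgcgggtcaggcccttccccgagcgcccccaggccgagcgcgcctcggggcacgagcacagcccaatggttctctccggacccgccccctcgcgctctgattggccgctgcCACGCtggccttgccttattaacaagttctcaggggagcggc
Smad6: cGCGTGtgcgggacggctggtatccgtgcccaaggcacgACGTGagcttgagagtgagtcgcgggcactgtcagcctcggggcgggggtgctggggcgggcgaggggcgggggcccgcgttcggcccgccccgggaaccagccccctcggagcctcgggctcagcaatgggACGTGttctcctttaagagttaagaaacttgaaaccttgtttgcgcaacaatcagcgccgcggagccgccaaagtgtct

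Bmp4 and Msx1 held 1 such site each and Smad6 held 3. Id3, which was at nearly the same level in both libraries, also held 1, and Id2 and Msx2 held 0. Either core is common: 38.6% of all 32851 RefSeq windows of the same length hold at least 1. The Smad-bound element GGCGCC was found only in Id2 among the 6 windows, against 9.59% of all windows, and the Smad box CAGAC was found 2 times in Id3 and in 42.2% of all windows. The T-box site TCACAC was in none of the 6 and in 12.3% of all windows. The E-box CANNTG, which overlaps the Bmp4 site CACGTG, was in the windows of Bmp4, Id2, Msx1 and Msx2 and in 66.2% of all windows. Such matches describe these 250 bases and nothing beyond them.

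The 3 Id genes did not move as a block. Id1 (chromosome 2, 152736251 to 152737410, plus strand) stood at 447 CPM in WT and 533 CPM in PHD2-KO cells, a ratio of 1.19 (1.18 to 1.20). Id3 (chromosome 4, 136143497 to 136145755, plus strand) stood at 210.4 and 224 CPM, a ratio of 1.07 (1.05 to 1.08). Both ratios are near the shift of all genes, whose median log2 ratio moved from 0.17 to -0.01 with a median-of-ratios size factor. With that factor the Id1 ratio was 1.06 and the Id3 ratio fell on the other side of 1, at 0.946. Id2 (chromosome 12, 25093799 to 25097140, minus strand) was at 72.3 CPM in WT and 54.0 CPM in PHD2-KO cells, 1.34-fold lower (1.30 to 1.38). With the median-of-ratios factor its ratio was 0.663, past 1.5-fold. Id2 was found in 49.8% of thinned WT and 34.9% of thinned PHD2-KO cells, and Id1 in 87.3% and 85.9%.

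Among the inhibitors, Bambi (chromosome 18, 3507923 to 3516404, plus strand) stood at 10.7 CPM in WT and 13.7 CPM in PHD2-KO cells, a ratio of 1.28 (1.21 to 1.36). Smad6 (chromosome 9, 63953076 to 64022059, minus strand), which preferentially restrains BMP receptors, stood at 1.13 and 2.86 CPM, a ratio of 2.54 (2.16 to 3.0). Smad7 (chromosome 18, 75367529 to 75395935, plus strand), which acts on BMP, TGF-beta and activin receptors, stood at 34.9 and 34.7 CPM, with a ratio of 0.994 (0.960 to 1.03). The inhibitory Smads thus differed from each other, with the interval of Smad6 wholly above that of Smad7.

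The differences between libraries were next asked within cells of like T state. In T-negative cells 8 members were measured, and 4 (Bmp4, Msx1, Msx2 and Bambi) were higher and 0 lower in PHD2-KO, where 12.1% of all measured genes were higher and 1.84% lower. Bmp4 and Msx2 reached the 5 CPM limit there only through the PHD2-KO cells. The members' median log2 ratio was 0.56 against 0.18 over all measured genes. Bmp4 and Msx2 enter that median with a direction set by the limit, so it is not read as a shift of the members. Bmp4 stood at 0.717 CPM in T-negative WT and 6.44 CPM in T-negative PHD2-KO cells, a ratio of 8.99 (7.11 to 11.4). Msx2 stood at 1.83 and 21.2 CPM, a ratio of 11.6 (10.1 to 13.3). Msx1 stood at 9.53 and 38.2 CPM, and Bambi at 10.6 and 18.0 CPM. The calls of Bmp4 and Bambi did not hold in T-negative cells of high chromosome 8 share, where Bambi had a ratio of 1.22 and Bmp4 stood at 3.01 CPM in PHD2-KO, below the limit, with a ratio of 4.4. Msx1 and Msx2 were past 1.5-fold there, at 2.59 and 6.27, and in low-share cells the ratios were 12.7 for Bmp4, 6.24 for Msx1, 17.0 for Msx2 and 2.47 for Bambi. In T-negative cells of high chromosome 11 share, with 65 in WT, Bambi turned to 0.841, while Msx1 was at 2.71 and Msx2 at 6.87. In all 74 WT cells of that share Msx2 stood at 1.20 CPM (0.145 to 4.34), so its ratio there is imprecise. In T-negative PHD2-KO cells Id3 was also at 267 CPM against 209 CPM in WT, a ratio of 1.28 (1.24 to 1.31).

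T-negative PHD2-KO cells also carried other genes at higher levels. The summed level of 9 naive pluripotency markers was 1457 CPM in them against 704 CPM in T-negative WT cells, and Dppa5a (1252 against 609.7 CPM) made up most of the sum. Of the 8 measured markers 6 were higher by 1.5-fold, beside 12.1% of all measured genes. Klf4, Tbx3 and Tfcp2l1 among them passed the 5 CPM limit only through the PHD2-KO cells, so they could not have been counted as lower. The summed level of 8 surface ectoderm and amnion markers was 882 against 384 CPM, most of it from the keratin genes Krt8 (447 against 170 CPM) and Krt18 (407 against 204 CPM). All 4 measured markers of that list were higher, and Gata3 passed the limit only through the PHD2-KO cells. The 11 nascent and lateral mesoderm markers summed to 279 against 11.3 CPM, with 6 of 6 measured higher, 5 of which (Mesp1, Cyp26a1, Gata6, Tbx3 and Pmp22) passed the 5 CPM limit only through the PHD2-KO cells, and 340 of the 1140 cells were Mesp1-positive. The part of these markers in the differences of Bmp4, Msx2 and Bambi was tested only for Mesp1, by leaving those cells out.

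Among cells negative for both T and Mesp1 (7196 WT and 800 PHD2-KO), Msx1 and Msx2 remained higher, and 2 of 7 measured members were called higher and 0 lower, with 13.3% of all genes higher and 1.47% lower. Msx2 stood at 1.83 CPM in WT and 12.4 CPM in PHD2-KO cells, a ratio of 6.77 (5.70 to 8.02). It reached the 5 CPM limit only through the PHD2-KO cells, so it could not have been counted as lower. Msx1 stood at 9.52 and 29.3 CPM, a ratio of 3.07 (2.79 to 3.38). Bmp4 stood at 0.720 and 4.88 CPM, a ratio of 6.78 (5.14 to 8.92), just under the 5 CPM limit. Bambi, in contrast, stood at 10.6 and 12.7 CPM, a ratio of 1.20 (1.04 to 1.37), and was no longer past 1.5-fold. Within the chromosome 8 classes Msx2 stood at 1.77 CPM in WT and 6.57 CPM in PHD2-KO high-share cells, and at 2.17 and 23.8 CPM in low-share cells. The Bmp4 ratio was 4.50 in high-share and 9.07 in low-share cells. These doubly negative cells were not alike in other genes: T stood at 2.09 CPM in WT and 23.4 CPM in PHD2-KO cells, and Mesp1 at 0.162 and 5.82 CPM. The naive pluripotency markers summed to 705 and 1694 CPM, the surface ectoderm and amnion markers to 385 and 920.5 CPM, and the nascent and lateral mesoderm markers to 11.1 and 50.9 CPM, and the part of these in the Msx differences was not tested.

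In T-low cells (510 WT and 2749 PHD2-KO) 2 of 7 measured members, again Msx1 and Msx2, were higher and 0 were lower, with 8.71% of all genes higher and 2.35% lower. Msx1 stood at 14.1 CPM in WT and 40.7 CPM in PHD2-KO cells, a ratio of 2.89 (2.49 to 3.37). Msx2 stood at 2.30 and 14.3 CPM, with a ratio of 6.22 (4.35 to 9.21). It passed the 5 CPM limit only through the PHD2-KO cells, so its count among the higher genes was set by that limit. The T-low states are not equal in T either, at 55.4 CPM in WT and 172 CPM in PHD2-KO cells. The WT levels of the ligands in these cells rest on 16 UMIs each, and the ratios of Bmp4 (3.45, 2.09 to 6.13) and Bmp7 (3.15, 1.90 to 5.6) have wide intervals. The Bmp4 ratio also moved with the processing, to 2.14 in cells of high chromosome 8 share and 6.34 with states from unthinned counts. For Msx2 it was 3.08 in high-share and 10.0 in low-share cells.

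**Figure D2:**
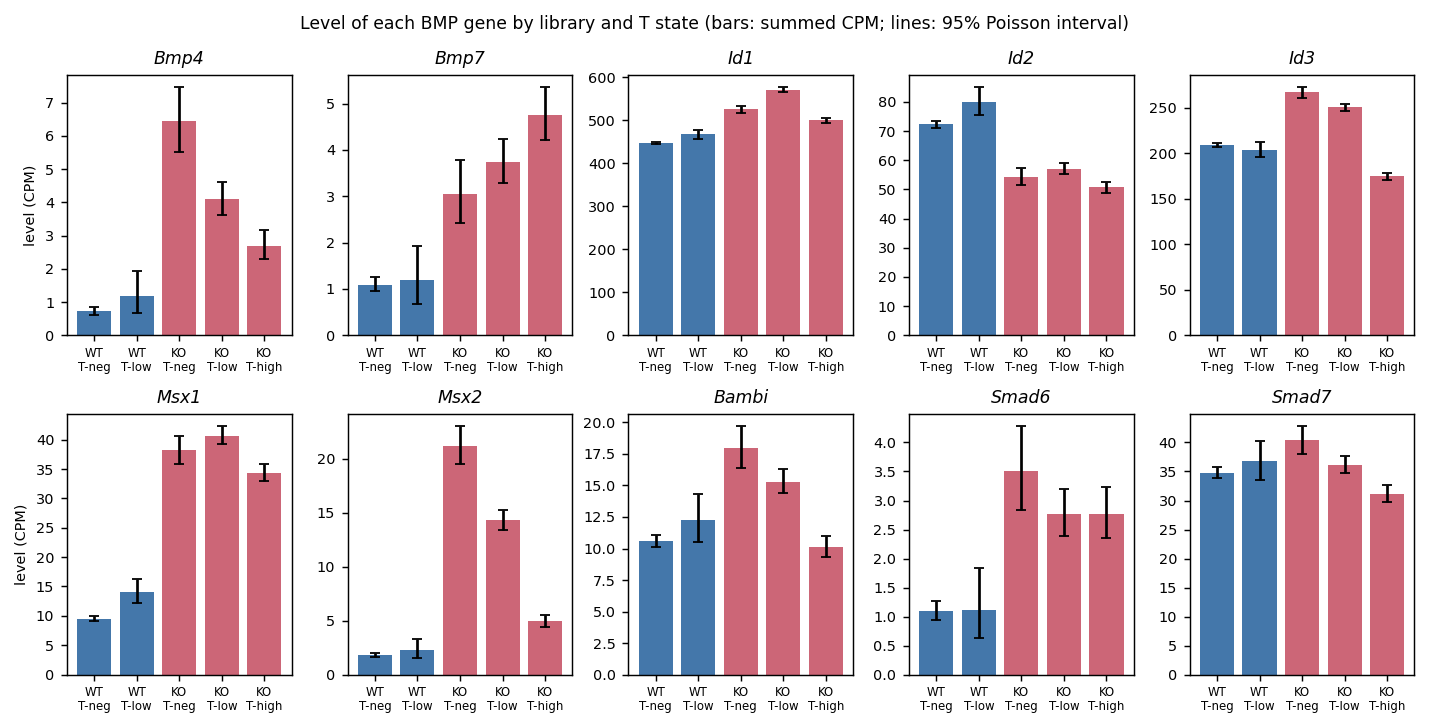
Level of each gene in CPM in T-negative and T-low WT cells (blue) and in T-negative, T-low and T-high PHD2-KO cells (red). Bars are summed levels and lines are 95% Poisson intervals of the counts. Bmp4, Msx2 and Bambi step down from T-negative to T-high PHD2-KO cells, Bmp7 steps up, and Id2 is higher in both WT states than in any PHD2-KO state.

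Ordering each gene's level over the 5 states gave 3 kinds of profile, shown in the plot of levels by T state. Bmp4, Bmp7, Msx1, Msx2 and Smad6 were higher in all 3 PHD2-KO states than in both WT states, and the lowest PHD2-KO interval did not overlap the highest WT interval for any of the 5. This order of levels also held within each chromosome 8 class, but with less separation. PHD2-KO and WT intervals overlapped for Bmp4, Bmp7, Msx2 and Smad6 in high-share cells, and for Bmp4, Bmp7 and Smad6 in low-share cells. In high-share cells Bmp4 stood at 1.43 CPM (1.02 to 1.94) in T-high PHD2-KO and 0.953 CPM (0.457 to 1.75) in T-low WT cells. Id1 had the same order by smaller steps, from 571 CPM in T-low PHD2-KO to 447 CPM in T-negative WT cells, but not in cells of low chromosome 8 share, where T-low WT cells stood at 574 CPM against 514, 567 and 499.7 CPM in T-negative, T-low and T-high PHD2-KO cells. Id2 had the reverse order, from 80.1 CPM in T-low WT and 72.4 CPM in T-negative WT cells to 57.1, 54.3 and 50.7 CPM in T-low, T-negative and T-high PHD2-KO cells, and neighbouring PHD2-KO intervals overlapped. Id3, Bambi and Smad7 crossed the libraries: T-high PHD2-KO cells were lowest for all 3. For Id3 the T-high level of 175 CPM lay below both WT levels (209 and 204 CPM) with no overlap, whereas for Bambi the T-high level of 10.1 CPM overlapped the T-negative WT level of 10.6 CPM.

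Within the PHD2-KO library, T-high cells had less of several BMP response genes than T-negative cells. Of 8 measured members 4 (Bmp4, Id3, Msx2 and Bambi) were lower and 0 higher, with 3.49% of all measured genes lower and 3.26% higher. The members' median log2 ratio was -0.49 against 0.02 over all genes. Bmp4 and Msx2 passed the 5 CPM limit only through the T-negative cells. Their direction was thus set by that limit, and both enter the median, which is not read as a shift of the members. Msx2 stood at 21.2 CPM in T-negative and 4.95 CPM in T-high cells, 4.28-fold lower (3.70 to 4.95). Bmp4 was 2.39-fold lower (1.91 to 2.99), Bambi 1.77-fold lower (1.57 to 2.01) and Id3 1.53-fold lower (1.48 to 1.58). Msx1, although a close relative of Msx2, stood at 38.2 and 34.4 CPM, and Smad7 at 40.4 and 31.1 CPM. With a high chromosome 11 share the Msx2 ratio was 0.588, and with T-high set at 10 or more UMIs it was 0.125. Bmp4 turned to 1.21 with a high chromosome 11 share, where Bambi was at 0.990 and Id3 at 0.822. Bmp7 went the other way, from 3.05 to 4.76 CPM (ratio 1.56, 1.21 to 2.02), below the 5 CPM limit. T-negative cells are the state in which the naive pluripotency markers summed to 1457 CPM, against 440.2 CPM in T-high cells, and the surface ectoderm and amnion markers to 882 against 494 CPM. The part of these markers in the T-high differences was not tested.

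**Figure D3:**
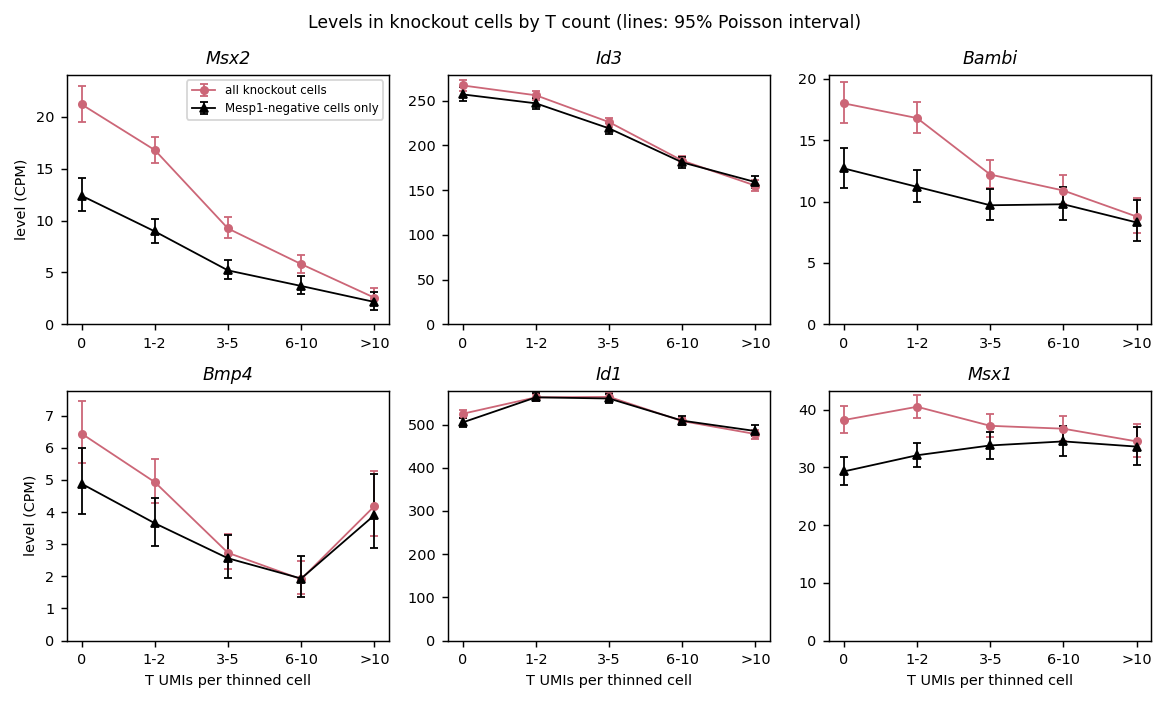
Level in CPM of Msx2, Id3, Bambi, Bmp4, Id1 and Msx1 in PHD2-KO cells by the number of T UMIs per cell thinned to 14000 UMIs (0, 1 to 2, 3 to 5, 6 to 10, over 10), for all cells (red) and Mesp1-negative cells (black). Lines at the points are 95% Poisson intervals. Msx2 and Id3 are lower in each successive T bin in both sets of cells, while Msx1 in Mesp1-negative cells stays between 29.3 and 34.5 CPM.

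The step was graded over T counts for Msx2 and Id3. From 0 through 1 to 2, 3 to 5, 6 to 10 and over 10 T UMIs (1140, 1674, 1494, 1271 and 704 cells), Msx2 stood at 21.2, 16.8, 9.24, 5.81 and 2.57 CPM. Id3 stood at 267, 256, 226, 183 and 155 CPM over the same bins. Bambi was also lower in each bin, from 18.0 to 8.78 CPM. Bmp4 was not graded throughout: it was lowest at 1.91 CPM in the 6 to 10 bin and stood at 4.18 CPM above 10. Mesp1 itself varied over these bins, from 292 CPM at 1 to 2 T UMIs to 105 CPM above 10, so the bins were repeated in Mesp1-negative cells. There Msx2 still stood at 12.4, 8.96, 5.20, 3.70 and 2.16 CPM, and Id3 at 257 CPM in the first and 159 CPM in the last bin. Bambi was not lower in each bin there, at 12.7, 11.2, 9.70, 9.78 and 8.30 CPM, and the intervals of neighbouring bins overlapped. Among Mesp1-negative cells the T-high over T-negative ratio was 0.246 for Msx2, and 0.678 for Id3 and 0.720 for Bambi, which were then under 1.5-fold. For Bmp4 it was 0.525, with both levels below 5 CPM.

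WT cells offered only the step from T-negative to T-low. Of 6 measured members 0 were higher and 0 lower, with 0.361% of all genes higher and 0.199% lower. Msx1 came closest, at 9.53 CPM in T-negative and 14.1 CPM in T-low cells, a ratio of 1.48 (1.27 to 1.72). Msx2 stood at 1.83 and 2.30 CPM, with a ratio interval that spans 1 (1.26, 0.841 to 1.82). The Msx1 ratio passed 1.5-fold in cells of low chromosome 8 share, in sums of thinned cells and with states from unthinned counts. The Msx2 ratio reached at most 1.41 under any setting. No other member of 5 CPM or more had a ratio above 1.16 or below 0.974 in this step.

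Mesp1-positive cells of the PHD2-KO library had more Msx2 and Bambi and less Id2. Among T-positive cells (1732 Mesp1-positive and 3411 Mesp1-negative), 2 of 7 measured members were higher and 1 was lower, with 1.65% of all genes higher and 2.53% lower. Msx2 stood at 5.59 CPM in Mesp1-negative and 18.8 CPM in Mesp1-positive cells, a ratio of 3.37 (3.0 to 3.79). Bambi stood at 9.99 and 18.8 CPM, a ratio of 1.89 (1.71 to 2.08), which was 2.23 in T-low cells alone but 1.34, under 1.5-fold, in T-high cells alone. Id2 stood at 63.8 and 34.6 CPM, 1.84-fold lower (1.74 to 1.96), though with states from unthinned counts its ratio was 0.713, under 1.5-fold. Id1, in contrast, was at 538 and 539 CPM and Smad7 at 33.7 and 34.2 CPM. T itself stood at 396 CPM in the Mesp1-negative and 355 CPM in the Mesp1-positive cells.

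In T-negative PHD2-KO cells the same split (340 Mesp1-positive and 800 Mesp1-negative cells) took in more of the genes. Of 9 measured members 5 (Bmp4, Msx1, Msx2, Bambi and Smad6) were higher and 1 (Id2) was lower, with 2.95% of all genes higher and 6.92% lower, and the members' median log2 ratio was 1.03 against -0.05. Smad6 passed the 5 CPM limit only through the Mesp1-positive cells, and so did Bmp4. The direction of both genes was thus set by that limit, and both enter the median, which is not read as a shift of the members. Msx2 reached 42.7 CPM in the Mesp1-positive cells, its highest level in any state, against 12.4 CPM. Msx1 stood at 59.8 against 29.3 CPM, Bambi at 30.9 against 12.7 CPM and Smad6 at 5.64 against 2.62 CPM. Bmp4 stood at 10.3 against 4.88 CPM, a ratio of 2.10 (1.54 to 2.86). In cells of high chromosome 8 share only Msx2 (ratio 4.08) and Bambi (1.88) were called: Bmp4 turned to 0.886, Msx1 was at 1.26 and Id2 at 0.971, and Smad6, at 2.36, was below the 5 CPM limit. In low-share cells the ratios were 2.38 for Msx2, 2.44 for Bambi, 2.01 for Bmp4, 2.12 for Msx1, 1.55 for Smad6 and 0.363 for Id2. After thinning, 30.9% of the T-negative, Mesp1-positive PHD2-KO cells had an Msx2 UMI, against 2.52% of T-negative WT cells, taken as the reference. Before thinning these shares were 39.7% and 4.01%, at median depths of 21696 and 21042 UMIs.

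**Figure D4:**
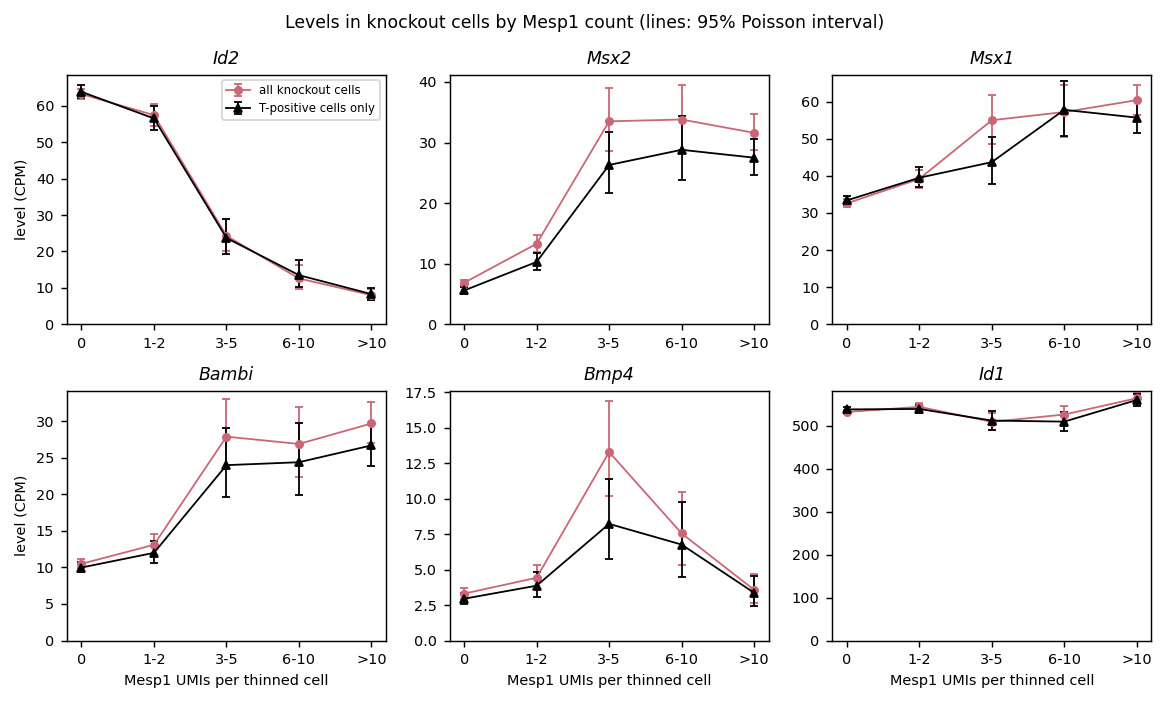
Level in CPM of Id2, Msx2, Msx1, Bambi, Bmp4 and Id1 in PHD2-KO cells by the number of Mesp1 UMIs per cell thinned to 14000 UMIs, for all cells (red) and T-positive cells (black). Lines at the points are 95% Poisson intervals. Id2 drops from 63.2 CPM without Mesp1 to 8.01 CPM above 10 Mesp1 UMIs, Msx2 and Bambi reach a plateau from 3 UMIs on, and Bmp4 peaks at 3 to 5 UMIs.

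The plot by Mesp1 count separates 3 shapes. Id2 went down steadily, at 63.2, 57.4, 24.3, 12.6 and 8.01 CPM over 0, 1 to 2, 3 to 5, 6 to 10 and over 10 Mesp1 UMIs (4211, 1065, 204, 198 and 605 cells). Msx2 went up and then stayed level, at 6.86, 13.3, 33.5, 33.8 and 31.6 CPM, and Bambi did likewise, at 10.5, 13.1, 27.9, 26.9 and 29.7 CPM. Bmp4 was highest in the middle: it stood at 3.31, 4.43, 13.3, 7.56 and 3.58 CPM, and in T-positive cells alone at 2.95, 3.87, 8.23, 6.77 and 3.37 CPM. The 3 to 5 bin held 66 Bmp4 UMIs, of which 35 came from its 170 T-positive cells. Its level (10.2 to 16.9) overlapped that of the 6 to 10 bin (5.30 to 10.5). In T-positive cells these intervals were 5.73 to 11.4 and 4.50 to 9.79. In the cells with most Mesp1, Bmp4 was back near its level in Mesp1-negative cells and Msx2 was not. Smad6 was also highest at 3 to 5 UMIs, at 6.22 CPM (4.23 to 8.83, from 31 UMIs). It stood at 2.46 CPM in the first and 4.22 CPM (3.22 to 5.43) in the last bin, so the last interval overlaps the highest. The other ligand, Bmp7, stayed between 3.78 and 5.25 CPM, Id1 between 509 and 564 CPM, Id3 between 219 and 254 CPM and Smad7 between 34.4 and 38.2 CPM.

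The chromosome 8 share moved with these states. Low-share cells made up 38.8% of PHD2-KO cells without a thinned Mesp1 UMI and 72.7% of those above 10, and 38.7% of T-negative against 49.6% of T-high cells. Within the PHD2-KO library, low-share cells had more Bmp4 (6.29 against 1.99 CPM), more Msx2 (18.3 against 6.42 CPM), more Msx1 (49.8 against 27.1 CPM) and less Id2 (37.0 against 68.2 CPM) than high-share cells. In the WT library the same classes differed little, with Msx2 at 2.15 and 1.82 CPM, Msx1 at 10.1 and 9.74 CPM and Id2 at 62.4 and 74.0 CPM. The PHD2-KO over WT differences of Bmp4, Msx1 and Msx2 were present within each class. In high-share cells the ratio was 2.84 for Bmp4, 2.78 for Msx1 and 3.52 for Msx2, and in low-share cells it was 6.25, 4.96 and 8.54. For Bmp7 the ratio was 3.16 in high-share and 3.82 in low-share cells, for Smad6 1.83 and 2.66, and for Bambi 1.06 and 1.53, past 1.5-fold in the low-share class alone. For Id2 it was 0.922 and 0.593. By chromosome 11, high-share PHD2-KO cells had Msx1 at 47.4 CPM against 36.1 CPM in the others and Msx2 at 7.49 against 12.4 CPM, and the PHD2-KO over WT ratio among high-share cells, with 74 in WT, was 2.93 for Msx1 and 6.24 for Msx2. The Msx2 level of those 74 WT cells had a wide interval, from 0.145 to 4.34 CPM.

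The Mesp1 differences were likewise repeated within each class in T-positive PHD2-KO cells. Msx2 stood at 3.53 CPM in Mesp1-negative and 10.9 CPM in Mesp1-positive high-share cells, and at 8.47 and 24.4 CPM in low-share cells. Id2 stood at 75.1 and 56.6 CPM in high-share cells, less than 1.5-fold apart, and at 48.0 and 19.3 CPM in low-share cells. The Mesp1 difference of Id2 was larger in the low-share class, and the difference between the classes was not tested. For T-high against T-negative cells, Msx2 stood at 3.31 against 11.1 CPM in high-share and 6.53 against 36.7 CPM in low-share cells, lower by over 1.5-fold in both classes. The other 3 lower calls each held in 1 class. Bambi was at 9.27 against 12.9 CPM in high-share cells, under 1.5-fold, and had a ratio of 0.425 in low-share cells. Bmp4 was at 1.43 against 3.01 CPM in high-share cells, below the 5 CPM limit, and at 3.92 against 11.7 CPM in low-share cells. Id3 was at 159 against 263 CPM in high-share cells and at 190.2 against 274 CPM in low-share cells, under 1.5-fold.

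Across single cells the Id genes varied together and most other members did not. Pearson r was computed on log values of the thinned cells of a library, and it is a description of cells that share a library and, after thinning, a depth. In WT (7742 cells) 3 of the 45 pairs reached 0.2: Id1 with Id3 at 0.57, Id1 with Id2 at 0.38 and Id2 with Id3 at 0.32. In PHD2-KO (6283 cells) the same pairs stood at 0.54, 0.33 and 0.25, and 4 more reached 0.2: Id1 with Msx1 and Id3 with Msx1 at 0.26, Id3 with Msx2 at 0.24, and Msx1 with Msx2 at 0.22. Bmp4 and Bmp7, detected in few cells, reached 0.2 with no other member in either library. Detection also differed for the Msx genes. Msx1 and Msx2 had a UMI in 9.73% and 2.58% of thinned WT cells and in 28.5% and 10.8% of thinned PHD2-KO cells. The Id genes had one in 49.8% (Id2) to 87.3% (Id1) of thinned WT cells. The part of these shares in the r values was not tested.

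**Figure D5:**
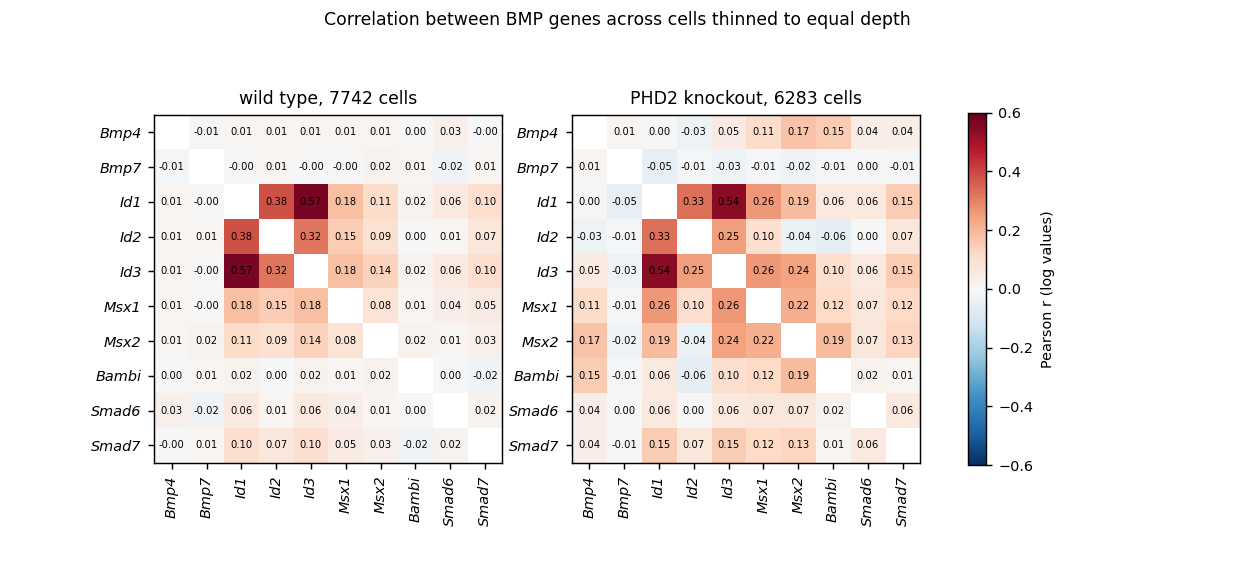
Pearson r between the 10 genes across cells thinned to 14000 UMIs, in WT (left, 7742 cells) and PHD2-KO (right, 6283 cells), on a colour scale from -0.6 to 0.6. The Id1, Id2 and Id3 block stands out in both libraries, and Msx1 and Msx2 reach 0.22 with each other in PHD2-KO against 0.08 in WT, where fewer cells had a UMI of either.

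Among all genes compared (7791 in WT and 8387 in PHD2-KO), the ones most like Id1 across WT cells were Id3, Id2 and, at 0.36, Sfn, a 14-3-3 protein gene. In PHD2-KO they were Id3 and the cytoplasmic actin genes Actg1 (0.41) and Actb (0.40). For Id2 they were Id1, Id3 and Tagln (0.23), which encodes an actin-binding protein, in WT, and Id1, Jund (0.29), an AP-1 subunit gene, and the calcium-binding protein gene S100a6 (0.28) in PHD2-KO. Id3 was most like Id1, Id2 and Tmsb4x (0.29), a thymosin gene, in WT, and Id1, Actb (0.30) and the tropomyosin gene Tpm1 (0.26) in PHD2-KO. Msx1 in PHD2-KO was most like Id1, Id3 and Phlda2 (0.25), an imprinted gene. Smad7 had no gene at 0.2 or above in either library.

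The rest of the pathway was read from 6 lists in the comparison over all kept cells, where the share over all measured genes was 11.7% higher and 2.35% lower. None of 13 other BMP ligands reached 5 CPM in either library. Of 6 measured receptors and co-receptors 2 were higher and 0 lower: the activin type II receptor gene Acvr2b (11.8 CPM in WT, 18.0 in PHD2-KO) and Eng, which encodes the co-receptor endoglin (5.86 and 9.19 CPM). The type I receptor gene Bmpr1a stood at 14.3 and 16.7 CPM and the co-receptor gene Rgmb at 5.86 and 5.61 CPM. Of 3 measured signal-carrying Smads, Smad1 (16.8 and 36.7 CPM) and Smad5 (6.62 and 10.2 CPM) were higher, and Smad4 stood at 39.2 and 53.2 CPM. Smad1, the direct carrier of the BMP signal, was thus 2.18-fold higher (2.09 to 2.27), and it lies on chromosome 8. Low-share and high-share PHD2-KO cells had it at 41.0 and 33.1 CPM, and T-positive PHD2-KO cells at 26.9 CPM without and 55.9 CPM with Mesp1.

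Of 3 measured extracellular antagonists, out of 17, 2 were higher and 0 lower, beside 11.7% and 2.35% of all measured genes. Fst, which encodes the activin- and BMP-binding protein follistatin, stood at 33.4 CPM in WT and 228 CPM in PHD2-KO cells, and Twsg1, a BMP-binding modulator, at 6.63 and 10.4 CPM. Fstl1 stood at 12.4 and 10.5 CPM. Fst followed T in the direction opposite to Msx2, at 88.0 CPM in T-negative and 352 CPM in T-high PHD2-KO cells. Of 11 measured intracellular modulators 3 were higher and 0 lower: Tob2 (5.37 and 9.61 CPM), the TAK1-linked ubiquitin ligase gene Xiap (13.6 and 23.8 CPM) and the phosphatase gene Ctdspl (3.92 and 5.89 CPM), which was measured only through the PHD2-KO library. The share over all measured genes was 11.7% higher. Ski, a Smad co-repressor gene, stood at 17.4 and 18.7 CPM, and Ppp1r15a, a phosphatase subunit gene, at 12.4 and 14.3 CPM.

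Of 20 other genes reported to respond to BMP 5 were measured, of which 3 were higher and 0 lower. These 3 passed the 5 CPM limit only through the PHD2-KO library, so their direction was set by that limit, and the count is not read against the 11.7% of all genes. Tbx3, a T-box factor gene, stood at 0.868 CPM in WT and 12.9 CPM in PHD2-KO cells, the caudal homeobox gene Cdx2 at 1.30 and 16.4 CPM, and the streak homeobox gene Evx1 at 3.02 and 24.0 CPM. Junb, an AP-1 subunit gene, stood at 50.4 and 75.3 CPM, just under 1.5-fold, and Klf10 at 11.5 and 16.4 CPM. Over T states Tbx3 had the order of Msx2, at 24.6 CPM in T-negative and 4.64 CPM in T-high PHD2-KO cells, and Cdx2 and Evx1 had the order of T, at 5.51 and 27.3 CPM and at 15.2 and 29.3 CPM. These 3 genes thus did not share a direction over T. Tbx3, Cdx2 and Evx1 also stand in the marker lists of mesoderm, trophoblast or streak.

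Markers of other cell types were read beside Bmp4, over all cells and in T-negative cells, where Bmp4 was highest among the T states. Over all measured genes, 11.7% were higher over all cells, 12.1% in T-negative cells and 13.3% in cells negative for T and Mesp1. Of 10 markers of extraembryonic ectoderm and trophoblast 3 were measured over all cells and 2 (Cdx2 and Eomes) were higher. In T-negative cells 3 of 4 measured were higher, with Tfap2c, and in cells negative for T and Mesp1 4 of 4, with Ascl2. Cdx2 and Tfap2c passed the 5 CPM limit only through the PHD2-KO library. The list summed to 23.5 CPM in WT and 83.4 CPM in PHD2-KO cells, and to 22.6 and 75.8 CPM in T-negative cells. Most of it was Eomes, also a streak gene (11.9 and 49.9 CPM over all cells), while Elf5, which defines that tissue, stood at 0.00992 and 0.140 CPM, and at 0.0111 and 0.744 CPM in T-negative cells, from 2 and 20 UMIs. Of 10 visceral endoderm markers 2 were measured and 1, Rhox5, was higher (6.91 and 10.5 CPM over all cells, 7.18 and 21.4 CPM in T-negative cells). That list summed to 659 and 581 CPM, nearly all of it Apoe (649.6 and 568 CPM), with Afp at 0.0893 and 0.184 CPM and Hnf4a at 0.00496 and 0.00634 CPM. Of 9 feeder fibroblast markers 1 was measured, Cdh11, also a mesoderm gene (0.114 and 7.21 CPM), and the list summed to 2.83 and 11.1 CPM, with Col1a1 at 0.273 and 0.565 CPM. The part of these cell types in the Bmp4 difference was not tested.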

How the data were processed

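Both libraries measure RNA of single cells. The authors deposited whole-number UMI counts per gene and barcode, which Cell Ranger 4.0.0 produced, per the file headers. Per the submitters' processing notes, mm10, Cell Ranger and Seurat were used. The matrices held 9651 WT barcodes (226179474 UMIs) and 7713 PHD2-KO barcodes (173470962 UMIs).

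Cells were kept at 1000 genes or more and at most 10% mitochondrial UMIs, which removed 391 and 157 WT and 298 and 150 PHD2-KO barcodes. Scrublet (scanpy 1.11.5) marked 0 doublets at its automatic threshold, so the highest scores were removed at 0.8% per 1000 barcodes (712 WT and 456 PHD2-KO cells). Thinning to 14000 UMIs left out 773 WT and 644 PHD2-KO shallower cells. It set the states and shares, and levels are sums of unthinned counts. Poisson, binomial and conditional binomial (Clopper-Pearson) intervals came from scipy 1.17.1 at 95%. Chromosome share classes came from a 2-component Gaussian mixture over both libraries, split at 5.841% (chromosome 8) and 12.22% (chromosome 11).

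The members and lists were chosen with earlier results of these data known. All 10 members are named, with Egln1, T and Mesp1, up to 2 measured genes from each end of a pathway list with those past 1.5-fold, the 3 genes most like a member of 20 CPM or more where r reached 0.2, and defining markers. On simulated counts of 8128 genes, the comparison over all cells recovered 200 of 200 genes changed 3-fold with 0 other calls, and intervals covered the truth for 94.7% of genes. These counts were Poisson draws from the pooled profile at 5 CPM or more, without uneven cells or spread between cultures. They check the calculation only, and say nothing of the calls in these data or of the comparisons by state. Gene positions are from GENCODE.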

Additional observations from a re-analysis of the deposited data

How the results depend on the processing

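For the 80 ratios of members, 1014 values under other settings were computed, of which 791 moved by less than counting error and 220 by more. Ratios not called past 1.5-fold that crossed 1 are counted in these groups, as for Id3 over all cells, from 1.07 to 0.946. The other 3 values were of called ratios and moved to the other side of 1. Those 3 were Bambi, PHD2-KO over WT in T-negative cells, at 0.841 with a high chromosome 11 share; Bmp4, T-high over T-negative, at 1.21 with the same share; and Bmp4, Mesp1-positive over Mesp1-negative in T-negative PHD2-KO cells, at 0.886 with a high chromosome 8 share. The cause was not tested.

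Counts of members past 1.5-fold are listed here where they changed by more than 1.5 times, or to or from 0. Smaller changes in count are left out. The share over all genes was not computed under these settings, so the counts are not read against it. With median-of-ratios factors 1 was lower in PHD2-KO over all, T-negative and T-low cells, and 0 with Mesp1 in T-negative cells. In low chromosome 8 share cells 4 were higher in PHD2-KO over all cells and over those negative for T and Mesp1, 1 was lower over all and T-low cells, and 1 was higher in T-high PHD2-KO and T-low WT cells. In high-share cells 2 were higher in T-negative PHD2-KO cells, 2 were lower in T-high cells, and with Mesp1 0 were lower in T-positive cells, and 2 higher and 0 lower in T-negative cells. In cells with a high chromosome 11 share 2 were higher in T-negative PHD2-KO cells and 1 was lower in T-high cells. With states from unthinned counts 4 were higher and 1 lower in T-low PHD2-KO cells, 1 was higher in T-low WT cells, and with Mesp1 0 were lower in either T state. With no CPM minimum 5 were higher in PHD2-KO over all, T-low and doubly negative cells, and 1 was higher in T-high and in T-low WT cells. At 2-fold 2 were lower in T-high cells, and with Mesp1 1 was higher and 0 lower in T-positive and 0 lower in T-negative cells. Summing thinned cells gave 1 higher in T-low WT cells, and Mesp1-negative cells alone 1 lower in T-high cells. Among T-positive cells 4 were higher with Mesp1 at 3 or more UMIs, 4 in T-low and 1 in T-high cells alone. Settings on chromosome 11 share, single Mesp1 or T states and unweighted cells were added after the data were seen.

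No paired analysis was possible because each group is 1 library. Settings with under 50 cells in a group (3, all of high chromosome 11 share) were not run, and 6 ratios there had no WT UMI to divide by. Bmp4, Bmp7 and Smad6 rest on 150 to 227 WT UMIs, which limits their precision.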
